A study of Mus musculus with 12 samples.

Results

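The cauda of the epididymis, where sperm are stored, was compared with the corpus, the segment before it, in control mice. The comparison rested on 3 cauda and 3 corpus arrays of 12 arrays in all and was read for 22180 genes, each shown by its brightest probe-set that carries a single symbol. Values are log2 intensities, so that a difference of 1 is a doubling, and each difference is cauda minus corpus. Control mice were Dicer1fl/fl, that is, they carried floxed Dicer1 alleles and no Cre, on a genetic background that is a mix of C57Bl/6N and SV129. The other 6 arrays, 3 of the cauda and 3 of the corpus, came from Dicer1 cKO mice (Defb41iCre/wt;Dicer1fl/fl), in which the beta-defensin 41 promoter drives Cre in principal cells of the initial segment/caput, upstream of both regions. The paired tissues of a region were pooled within a mouse. The labels give no age and do not tell which cauda and corpus arrays came from 1 mouse.

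Sperm leave the testis immobile and acquire motility and fertilizing ability as they pass through the epididymal duct. The lining epithelium changes its secreted proteins, its ion and water transport and its metabolism from segment to segment, so that sperm meet a different fluid in each. A coat of smooth muscle surrounds the duct; it is thin and moves contents along in the proximal part, and thick in the cauda, where it contracts at ejaculation. Each array measured a piece of tissue with epithelium, muscle, connective tissue and luminal sperm, so that fewer cells of a type and less RNA per cell cannot be told apart.

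At an adjusted p under 0.05, 550 genes were higher and 607 were lower in the control cauda than in the control corpus (1157 genes, 5.22% of those tested; 2.48% higher and 2.74% lower). The difference was over 2-fold for 299 of the higher and 353 of the lower genes, and over 8-fold for 17 and 32. All 1157 had no overlap between their 3 cauda and 3 corpus arrays, a pattern that 28.1% of all genes had. The median difference over all genes was -0.03. The plot of group means shows the called genes on both sides of the diagonal over the whole range of intensity. Leaving out 1 control array at a time kept 490 of the 1157 calls in all 6 fits. Where a gene named below lost its call, the arrays concerned are given with it, except for Hoxb9.

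**Figure D1:**
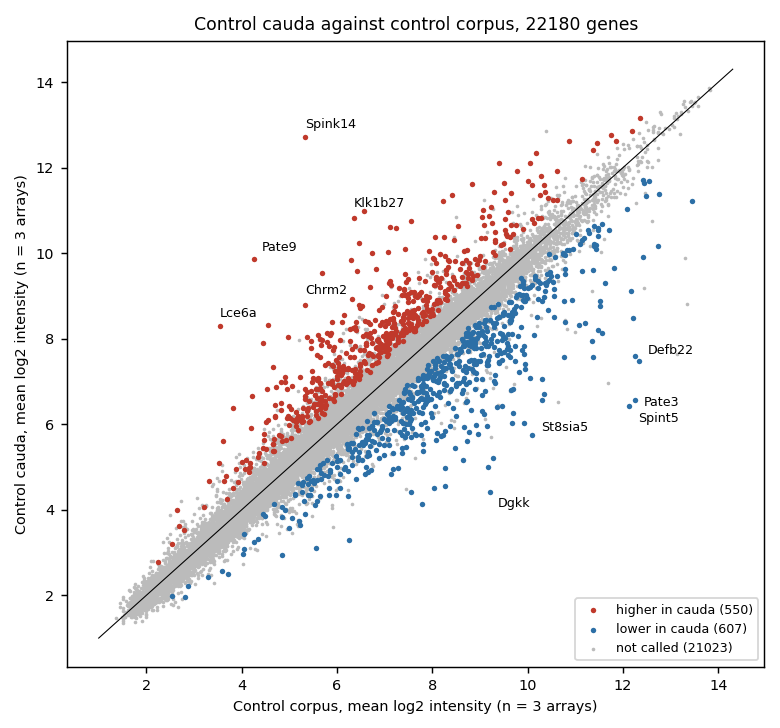
Mean log2 intensity of 22180 genes in the control cauda (vertical) against the control corpus (horizontal), 3 arrays each; the line marks equal values, red points are the 550 genes higher and blue points the 607 genes lower in the cauda at an adjusted p under 0.05, and grey points were not called. Spink14 lies farthest above the line (7.38) and Spint5 farthest below it among called genes (-5.71).

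The labelled tissue was checked against marker genes. The 13 epithelial markers measured, Epcam and Cdh1 among them, averaged 9.18, 8.88 and 9.09 on the cauda arrays, against 9.28, 9.16 and 9.37 on the corpus arrays, all well above the median of all values (5.23); 3 had a positive difference, the median difference was -0.51 (-0.31 in cKO mice), and 2 were called higher and 3 lower. Genes known from the initial segment and caput, the segments upstream, had a positive difference for 5 of 38 members; 7 were called, all lower in the cauda, and 3 kept that call in every control leave-one-out fit; their average was 8.30, 8.12 and 7.01 on the cauda arrays, against 9.04, 9.53 and 9.28 on the corpus arrays. The 17 skeletal muscle genes averaged 5.87, 5.73 and 6.01 on the cauda arrays, against 8.90, 5.57 and 5.36 on the corpus arrays, so that corpus control replicate 1 stood apart with a high level, and none of them was called. The 36 transcripts of haploid germ cells, which luminal sperm retain in part, were higher in the cauda for 34 members (average 6.84, 7.50 and 7.17 on the cauda arrays, against 5.75, 6.50 and 6.49 on the corpus arrays; median difference 0.90), but 1 was called, and the median difference in cKO mice had the opposite sign (-0.28). Macrophage and dendritic cell genes were positive for 19 of 19, with a median difference of 0.26 and no call (median -0.23 in cKO mice, again the opposite sign), and their average was 8.37, 8.43 and 8.07 on the cauda arrays, against 8.27, 7.82 and 7.87 on the corpus arrays. Fibroblast genes had a median difference of 0.72 (0.32 in cKO mice), with 2 of 13 called higher, neither of which kept its call in every control leave-one-out fit. The part of these cell types in the differences below was not tested. Dicer1 itself read 7.51, 7.59 and 7.64 on the cauda arrays, against 7.65, 7.37 and 7.45 on the corpus arrays (log2 difference 0.09 ± 0.12 (SE), adjusted p = 0.802).

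The largest increases were led by secreted proteins. Spink14, a Kazal-type serine protease inhibitor, read 12.72, 12.78 and 12.65 on the cauda arrays, against 5.52, 6.85 and 3.63 on the corpus arrays (log2 difference 7.38 ± 0.59 (SE), adjusted p = 0.000119). The 3 corpus arrays were scattered around the median of all values, and the 3 cauda arrays lay within 0.13 of each other. Pate9, of a family of small sperm-binding proteins, read 10.46, 10.54 and 8.61 on the cauda arrays, against 4.86, 5.29 and 2.63 on the corpus arrays (5.61 ± 0.65, adjusted p = 0.000786). Klk1b27, a kallikrein (a secreted serine protease), averaged 10.83 ± 0.17 on the cauda arrays and 6.35 ± 0.64 on the corpus arrays (SD, n = 3 each; 4.48 ± 0.45, adjusted p = 0.000399). Svs1, which belongs to the seminal vesicle secretory proteins, read 9.54, 9.35 and 9.72 on the cauda arrays, against 6.25, 7.25 and 3.58 on the corpus arrays (3.84 ± 0.69, adjusted p = 0.011). In all of these the lowest cauda array was above the highest corpus array by more than 2 log2 units.

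Other genes among the 15 largest increases encode transporters, receptors and enzymes. Slc7a15, an amino acid transporter-like member of the solute carriers, read 10.93, 11.22 and 10.82 on the cauda arrays, against 6.79, 7.87 and 5.02 on the corpus arrays (4.43 ± 0.52, adjusted p = 0.000917). Sptlc3, a subunit of serine palmitoyltransferase, the enzyme that opens sphingolipid synthesis, read 10.44, 10.0 and 10.24 on the cauda arrays, against 6.49, 6.78 and 6.09 on the corpus arrays (3.77 ± 0.31, adjusted p = 0.000143). Gabrp, the pi subunit of the GABA-A receptor, read 10.38, 9.92 and 9.70 on the cauda arrays, against 6.68, 6.81 and 6.75 on the corpus arrays (3.25 ± 0.34, adjusted p = 0.000467), and the corpus values were close to each other. The rest were Lce6a (4.76), Gm16063 (3.75), Anxa9 (3.50), Khdc1c (3.44), Adgrg7 (3.35), the muscle genes P2rx1 and Chrm2 described below, and Mmp7 (matrilysin, 3.22 ± 0.75, adjusted p = 0.0398). Of these 15, Mmp7 lost its call without cauda control replicate 1, 2 or 3 or corpus control replicate 2 or 3 (adjusted p = 0.0678 to 0.164), and the other 14 kept theirs in all 6 control leave-one-out fits.

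Among the 15 largest decreases, Spint5, a Kunitz-type protease inhibitor, read 7.88, 7.14 and 4.24 on the cauda arrays, against 12.08, 12.16 and 12.15 on the corpus arrays (-5.71 ± 1.16, adjusted p = 0.0208), with tight corpus values and cauda values spread over more than 3 log2 units. Pate3 read 7.85, 7.18 and 4.64 on the cauda arrays, against 11.97, 12.22 and 12.55 on the corpus arrays (-5.69 ± 0.97, adjusted p = 0.00844) and behaved alike. Dgkk, a diacylglycerol kinase, read 4.72, 4.44 and 4.06 on the cauda arrays, against 9.13, 8.66 and 9.86 on the corpus arrays (-4.81 ± 0.72, adjusted p = 0.00428), and St8sia5, a sialyltransferase, read 6.11, 5.50 and 5.65 on the cauda arrays, against 10.18, 9.77 and 10.33 on the corpus arrays (-4.34 ± 0.30, adjusted p = 7.78e-05). Both had no cauda array above 6.2 and no corpus array below 8.6. Car4, a membrane-bound carbonic anhydrase, read 8.39, 8.07 and 6.27 on the cauda arrays, against 11.26, 11.36 and 11.48 on the corpus arrays (-3.79 ± 0.57, adjusted p = 0.00428). Myom2, an M-band protein of striated muscle, read 5.09, 5.23 and 4.68 on the cauda arrays, against 9.02, 8.93 and 9.52 on the corpus arrays (-4.16 ± 0.60, adjusted p = 0.00332), so that its level was alike on all 3 corpus arrays and not raised on corpus control replicate 1 alone. Chrna2, a nicotinic acetylcholine receptor subunit, had a difference of -3.73, Faim2 -3.89, BC048679 -4.65, Gm10823 -4.04, and the brush-border cadherin Cdhr2 -3.64 (adjusted p = 0.0435). Calls were lost for Spint5 without cauda control replicate 2 or 3 or corpus control replicate 1, 2 or 3 (adjusted p = 0.0504 to 0.0785), for Cdhr2 without cauda control replicate 1, 2 or 3 or corpus control replicate 1, 2 or 3 (adjusted p = 0.0823 to 0.168), and for the beta-defensins Defb22 and Defb30 as given below.

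**Figure D2:**
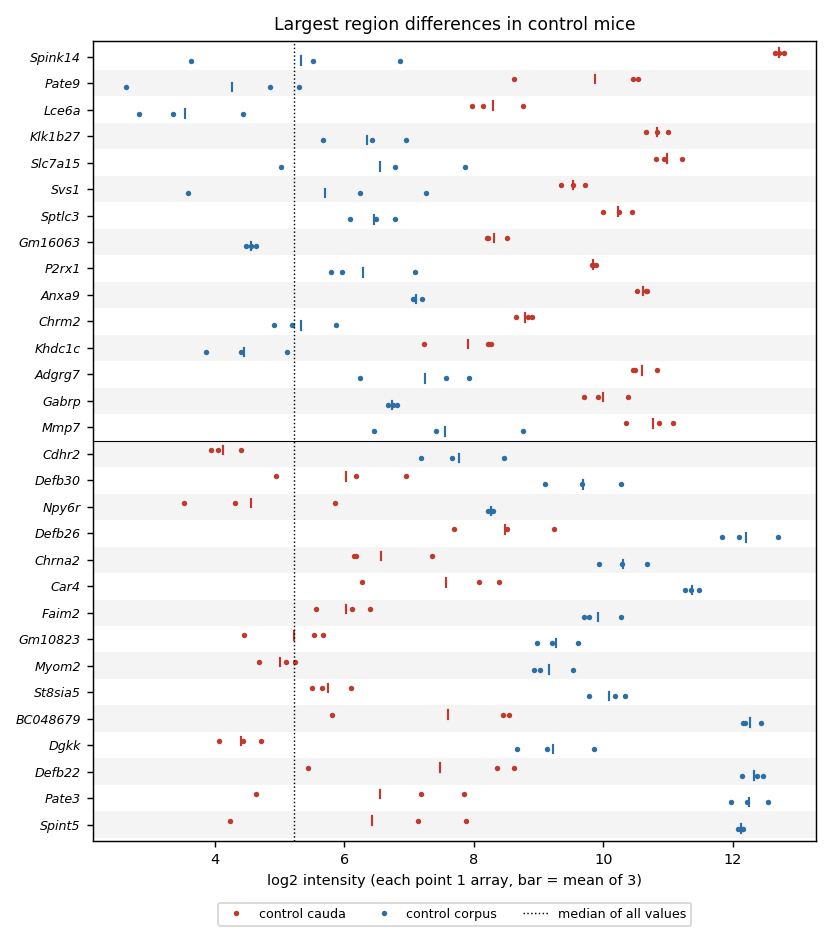
Log2 intensity of the 15 genes with the largest increase (above the line) and the 15 with the largest decrease (below it) in the control cauda; each point is 1 array, red for cauda and blue for corpus, bars are means of 3, and the dotted line is the median of all values (5.23). The groups do not overlap in any row, which holds for all 1157 called genes, from which these were taken. Cauda values of Spint5, Pate3 and Defb22 are spread widely.

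Beta-defensins are small cationic antimicrobial peptides, several of which coat epididymal sperm. Of 43 measured, 11 were lower and 2 higher in the cauda (median difference -0.64). Defb26 read 8.52, 9.24 and 7.70 on the cauda arrays, against 11.82, 12.70 and 12.10 on the corpus arrays (-3.72 ± 0.56, adjusted p = 0.00428), and Defb39 read 10.21, 9.86 and 9.67 on the cauda arrays, against 12.55, 12.62 and 12.09 on the corpus arrays (-2.51 ± 0.21, adjusted p = 0.000167). Defb13 (-2.45 ± 0.36) and Defb42 (-2.76 ± 0.48) were lower as well, whereas Defb9 read 11.41, 11.81 and 11.60 on the cauda arrays, against 9.25, 9.03 and 8.23 on the corpus arrays (2.77 ± 0.29, adjusted p = 0.000445) and Defb2 differed by 1.76 ± 0.20 (± SE). The direction thus differed within the family. These 6 genes were called in all 6 control leave-one-out fits, and the other 7 calls were lost in at least 4 of them. Defb22 (-4.85 ± 0.96, adjusted p = 0.0183) lost its call without cauda control replicate 3 or corpus control replicate 1, 2 or 3 (adjusted p = 0.0546 to 0.0749) and Defb30 (-3.66 ± 0.85, adjusted p = 0.0397) without cauda control replicate 2 or 3 or corpus control replicate 1, 2 or 3 (adjusted p = 0.0912 to 0.142). In 10 of the 11 decreased defensins cauda control replicate 3 was the lowest array, and with it left out 6 members of the family were called.

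Protease inhibitors and sperm-coating proteins went in both directions. The 12 Spink genes had 3 members called higher and 0 called lower (25% called, beside 5.22% over all genes). Spink14 was the one called in every control leave-one-out fit. A positive difference was seen in 5 of the 12, the median was -0.06, and the lowest difference was -3.25, without a call. Of 25 Kunitz and WAP inhibitors, Wfdc3 (1.21 ± 0.17) and Wfdc6b (1.26 ± 0.19) were higher and Wfdc13 (-2.23 ± 0.26) and Spint5 were lower. Wfdc13 read 11.63, 11.55 and 10.46 on the cauda arrays, against 13.36, 13.47 and 13.50 on the corpus arrays. Crisp4, a cysteine-rich secretory protein that binds sperm, read 8.48, 8.85 and 7.61 on the cauda arrays, against 10.85, 11.54 and 10.82 on the corpus arrays (-2.76 ± 0.36, adjusted p = 0.00167). Rnase9, an epididymal member of the ribonuclease A family, read 10.57, 10.04 and 9.90 on the cauda arrays, against 12.83, 12.84 and 12.54 on the corpus arrays (-2.56 ± 0.26, adjusted p = 0.00037). The lipocalins, carriers of small hydrophobic molecules, had a median difference of -0.86 over 10 members, but the sole call was an increase, of Lcn12 (1.02 ± 0.15, adjusted p = 0.00413). None of 10 cystatins was called. Of 53 serpins 2 were higher and 1 lower (5.66% called, beside 5.22% over all genes), none of which kept the call in all 6 control leave-one-out fits.

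Of 20 glycosidases, 4 were lower and none was higher. Glb1l3, a beta-galactosidase-like protein, read 9.27, 9.59 and 8.50 on the cauda arrays, against 11.82, 12.37 and 12.29 on the corpus arrays (-3.04 ± 0.33, adjusted p = 0.000521). Naglu, the lysosomal alpha-N-acetylglucosaminidase, differed by -0.92 ± 0.15 and read 8.75, 8.43 and 8.47 in the cauda and 9.38, 9.38 and 9.67 in the corpus. Among luminal and sperm-coating proteins (1 higher and 3 lower of 27), Npc2, a sterol-binding protein abundant in epididymal fluid, was lower at 11.45, 11.39 and 11.30 in the cauda and 12.59, 12.76 and 12.88 in the corpus (-1.36 ± 0.12, adjusted p = 0.000177), and Dcxr, the dicarbonyl/L-xylulose reductase found on sperm, was lower by a similar amount (-1.20 ± 0.17, adjusted p = 0.00339). Of 33 ADAM genes, Adam22 was higher (1.0 ± 0.16, adjusted p = 0.00646) and Adam33 lower (-0.99 ± 0.23, adjusted p = 0.0412), and the call of Adam33 was lost without cauda control replicate 1, 2 or 3 or corpus control replicate 1 or 3 (adjusted p = 0.0527 to 0.167). The share of ADAM genes called (6.06%) was close to that over all genes (5.22%).

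Transport genes were called in both directions. Of 354 solute carrier genes, 20 were higher and 21 lower (11.6% called, beside 5.22% over all genes), and the median difference was -0.10. Slc26a7, an anion exchanger and chloride channel, read 8.27, 8.0 and 8.01 on the cauda arrays, against 5.52, 5.81 and 5.45 on the corpus arrays (2.49 ± 0.15, adjusted p = 5.22e-05). Slc27a2, a fatty acid transporter and very long-chain acyl-CoA synthetase, read 9.76, 10.14 and 10.15 on the cauda arrays, against 6.76, 7.39 and 7.06 on the corpus arrays (2.95 ± 0.22, adjusted p = 9.61e-05). Slc28a3, a concentrative nucleoside transporter (1.67 ± 0.14), and Slc2a12, a glucose transporter (1.49 ± 0.13), were also higher. All 4 had every cauda array above every corpus array, as every gene called higher did.

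On the lower side, Slc39a8, a zinc and manganese importer, read 7.93, 7.82 and 6.96 on the cauda arrays, against 10.87, 10.92 and 10.48 on the corpus arrays (-3.19 ± 0.48, adjusted p = 0.00427). Slc34a2, a sodium-phosphate cotransporter, read 7.37, 6.79 and 6.23 on the cauda arrays, against 9.38, 9.53 and 10.03 on the corpus arrays (-2.85 ± 0.38, adjusted p = 0.00195). Slc40a1 (ferroportin), the iron exporter, differed by -2.06 ± 0.31, and Slc4a11, a borate-transporter-like solute carrier, by -1.99 ± 0.21. Each was lower on all 3 cauda arrays than on any corpus array, as every gene called lower was. Of 14 carbonic anhydrases, which set bicarbonate and pH, 4 were lower and none was higher, with Car4 the one that kept its call in every control leave-one-out fit. Of 23 subunits of the proton pump that acidifies the lumen, 1 (Atp6ap2) was called (4.35%, beside 5.22% over all genes). Its call was lost without cauda control replicate 1 or 3 or corpus control replicate 1, 2 or 3 (adjusted p = 0.0583 to 0.0849). The 14 clear cell markers, which share some of these genes, averaged 7.24, 7.19 and 7.13 on the cauda arrays, against 7.21, 7.26 and 7.27 on the corpus arrays. Of 14 ATPase subunits, Atp1b1, the beta subunit of the sodium pump, was lower, at 10.14, 10.01 and 10.11 in the cauda and 11.47, 11.29 and 11.56 in the corpus (-1.36 ± 0.20, adjusted p = 0.00334), and Fxyd4, a regulator of the pump, was higher (2.28 ± 0.56, adjusted p = 0.0491), a call lost without cauda control replicate 1, 2 or 3 or corpus control replicate 1, 2 or 3 (adjusted p = 0.0843 to 0.165).

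Ion channel genes were called in both directions. Of 87 potassium channel genes, 5 were higher and 7 lower (13.8% called, beside 5.22% over all genes). Kcnd2, a voltage-gated subunit, read 8.23, 7.88 and 7.97 on the cauda arrays, against 5.69, 5.16 and 5.28 on the corpus arrays (2.65 ± 0.20, adjusted p = 0.000106), and Kcns1, a modulatory subunit, differed by 2.28 ± 0.21. Kcnj16, an inward rectifier, read 5.38, 5.23 and 4.85 on the cauda arrays, against 8.49, 8.18 and 9.27 on the corpus arrays (-3.50 ± 0.37, adjusted p = 0.000464), and Kcnh3 (-2.35 ± 0.23), Kcne3 (-2.0 ± 0.29) and Kcnd1 (-1.75 ± 0.27) were lower too. Of 33 chloride and epithelial sodium channel genes, 2 were higher and 1 lower (9.09% called, nearer the share over all genes). The lower one was Best1, a bestrophin (-0.85 ± 0.20, adjusted p = 0.0414), a call lost without cauda control replicate 1, 2 or 3 or corpus control replicate 2 or 3 (adjusted p = 0.0653 to 0.166). The higher ones were Ano1, the calcium-activated chloride channel (1.76 ± 0.16, adjusted p = 0.000255), and Clca3a2, which read 10.58, 11.32 and 11.10 on the cauda arrays, against 9.43, 9.03 and 8.72 on the corpus arrays (1.94 ± 0.33, adjusted p = 0.00879). Among ABC transporters (2 higher and 2 lower of 48, 8.33% called), Abca5 was higher (1.76 ± 0.17) and Abcc3, an organic anion exporter, was lower (-1.74 ± 0.23). Of 25 claudins 8% were called, again beside 5.22% over all genes. Cldn4 was higher, at 9.55, 9.23 and 9.39 in the cauda and 8.16, 7.94 and 8.29 in the corpus (1.26 ± 0.21, adjusted p = 0.00656). Cldn11 was lower (-1.49 ± 0.27, adjusted p = 0.0112), a call lost without cauda control replicate 3 or corpus control replicate 3 (adjusted p = 0.0507 to 0.0591). Krt19, an epithelial keratin, was higher as well, at 9.86, 9.74 and 9.99 in the cauda and 8.26, 7.91 and 7.92 in the corpus (1.83 ± 0.18, adjusted p = 0.000329), whereas the epithelial splicing regulator Esrp2 was lower (-1.06 ± 0.16, adjusted p = 0.00479).

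Of 30 fatty acid and triglyceride synthesis genes, 4 were lower and 0 higher, with a median difference of -0.19. Elovl2, which elongates polyunsaturated fatty acids, read 7.24, 7.56 and 6.43 on the cauda arrays, against 9.78, 10.19 and 10.18 on the corpus arrays (-2.98 ± 0.45, adjusted p = 0.00441). Gpam, the mitochondrial acyltransferase that opens triglyceride synthesis (-1.13 ± 0.15, adjusted p = 0.00211), and Agpat2, the next acyltransferase (-1.26 ± 0.17, adjusted p = 0.00219), were lower. In fatty acid oxidation (1 higher and 2 lower of 31, 9.68% called beside 5.22% over all genes), Crot was lower (-0.83 ± 0.14) and Slc22a21, a carnitine transporter, was higher (1.46 ± 0.21). The 19 cholesterol synthesis genes were positive for 14 members (median 0.30), but 1 was called (5.26%, close to the share over all genes). It was Hmgcs1, which lost its call without cauda control replicate 1 or 2 or corpus control replicate 2 or 3 (adjusted p = 0.0685 to 0.111).

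In energy metabolism, Ldhb, the heart-type lactate dehydrogenase subunit, was higher, at 10.36, 10.15 and 10.53 in the cauda and 9.02, 9.09 and 8.94 in the corpus (1.33 ± 0.16, adjusted p = 0.00111). It was the sole call among 23 glycolysis and lactate genes (4.35%, beside 5.22% over all genes), of which 18 were positive. Pdk1, a kinase that restrains pyruvate dehydrogenase, was lower, at 8.30, 8.25 and 7.81 in the cauda and 9.74, 9.37 and 9.65 in the corpus (-1.47 ± 0.19, adjusted p = 0.00172), in a citric acid cycle list with 1 higher and 2 lower of 28. None of 73 respiratory chain subunits was called (median 0.03). Cyp4f15, a fatty acid hydroxylase family member (2.07 ± 0.29, adjusted p = 0.00277), was higher among cytochrome P450 genes. Of 93 such genes 1 was higher and 3 lower (4.3% called, below the 5.22% over all genes). Hsd3b7, a bile acid and oxysterol enzyme (-1.75 ± 0.26, adjusted p = 0.00428), was lower among steroid-converting enzymes (0 higher and 4 lower of 32, 12.5% called). Of those calls, only that of Hsd3b7 stood in all 6 control leave-one-out fits. In the handling of retinoids (3 higher and 2 lower of 31), Lrat, which esterifies retinol, was higher (1.12 ± 0.19, adjusted p = 0.00754), as was the retinoic acid-responsive gene Rarres1 (1.84 ± 0.28, adjusted p = 0.00428). The calls of the other retinoid genes did not stand in all 6 control leave-one-out fits. Of 20 sialyltransferases 3 were lower (15% called, beside 5.22% over all genes), and only St8sia5 kept the call in all 6 control leave-one-out fits. Of 19 polypeptide GalNAc transferases, which start O-glycans, 4 were higher and 2 lower (31.6% called). Galnt9 was higher (0.93 ± 0.16, adjusted p = 0.00755) and Galnt7 lower (-1.68 ± 0.22, adjusted p = 0.00154). They were the only members of that list to keep the call in all of those fits.

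**Figure D3:**
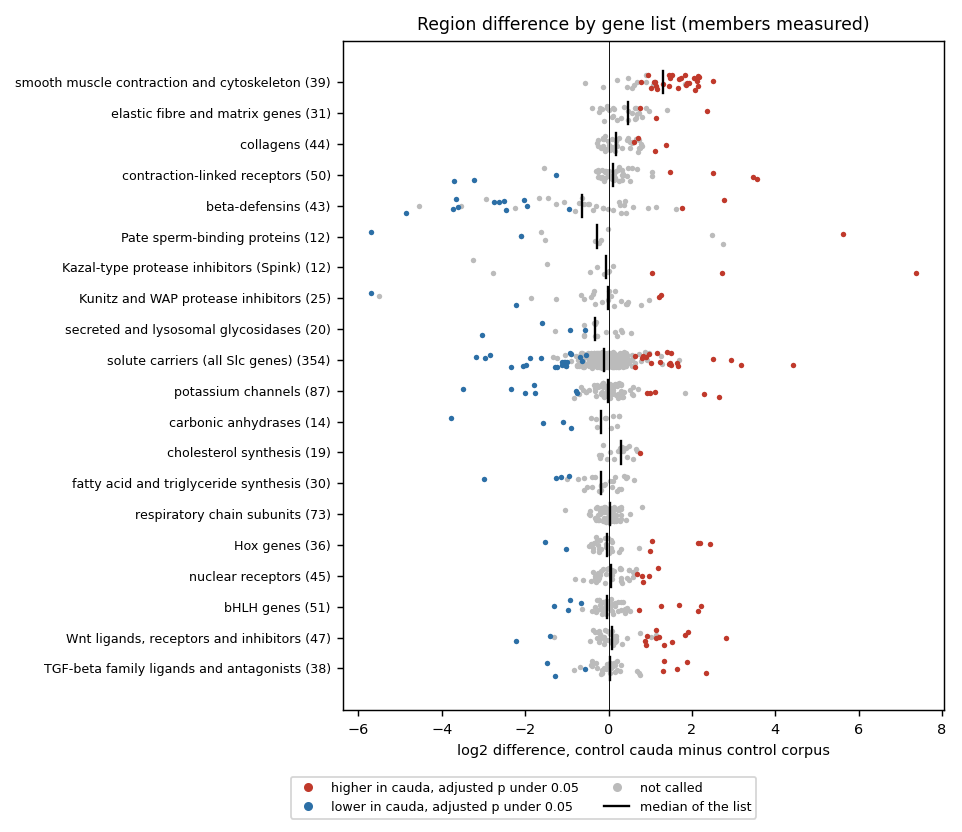
Log2 difference, control cauda minus control corpus, of each measured member of 20 gene lists (number measured in brackets); red points were called higher and blue points lower at an adjusted p under 0.05, grey points were not called, and black bars are list medians. The smooth muscle list has its median at 1.29, beta-defensins have theirs at -0.64, and most other medians lie near 0.

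Genes of the smooth muscle contractile apparatus and its cytoskeleton were higher in the cauda. Of 39 measured, 26 were higher at an adjusted p under 0.05 and none was lower, and 37 had a positive difference. Their median was 1.29, beside -0.03 over all genes, and 25 of the 26 calls stood in every control leave-one-out fit, the exception being Ppp1r12b, lost without corpus control replicate 3. Synpo2 (synaptopodin 2, an actin-bundling protein) read 9.07, 9.54 and 8.98 on the cauda arrays, against 7.03, 6.79 and 6.28 on the corpus arrays (2.50 ± 0.21, adjusted p = 0.000145). Myh11, the smooth muscle myosin heavy chain, read 11.96, 12.13 and 12.20 on the cauda arrays, against 10.20, 10.25 and 9.67 on the corpus arrays (2.06 ± 0.20, adjusted p = 0.000303). Pgm5, an adherens junction protein of muscle, read 11.46, 11.93 and 11.54 on the cauda arrays, against 9.55, 9.78 and 9.17 on the corpus arrays (2.14 ± 0.20, adjusted p = 0.000264). In each the 3 cauda arrays were all above the 3 corpus arrays, with a gap larger than the spread within either region. Hspb8, a small heat shock protein of muscle, differed by 1.48 ± 0.14.

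Some further members of the list were chosen after their values were seen. Cnn1 (calponin) read 12.36, 12.36 and 12.30 on the cauda arrays, against 10.18, 10.47 and 9.86 on the corpus arrays, and Des (desmin), the intermediate filament of muscle, read 11.07, 11.86 and 11.32 on the cauda arrays, against 9.93, 9.25 and 8.70 on the corpus arrays. Acta2, the smooth muscle actin, read 13.21, 13.17 and 13.06 on the cauda arrays, against 12.36, 12.36 and 12.36 on the corpus arrays (0.79 ± 0.13, adjusted p = 0.00672), a smaller difference at a very high intensity. Tpm1 (1.11 ± 0.28, adjusted p = 0.06), Itga8 (1.06 ± 0.33, adjusted p = 0.126) and Kcnmb1, the beta subunit of a large-conductance potassium channel (1.83 ± 0.60, adjusted p = 0.146), had differences above 1 without a call. The 2 members with a negative difference were Casq2 (-0.56) and Pln (-0.13), both calcium-handling genes of the sarcoplasmic reticulum, neither called. The average over the list was 9.43, 9.66 and 9.43 on the cauda arrays, against 8.40, 8.23 and 8.03 on the corpus arrays, so that the array means of the regions did not overlap.

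**Figure D4:**
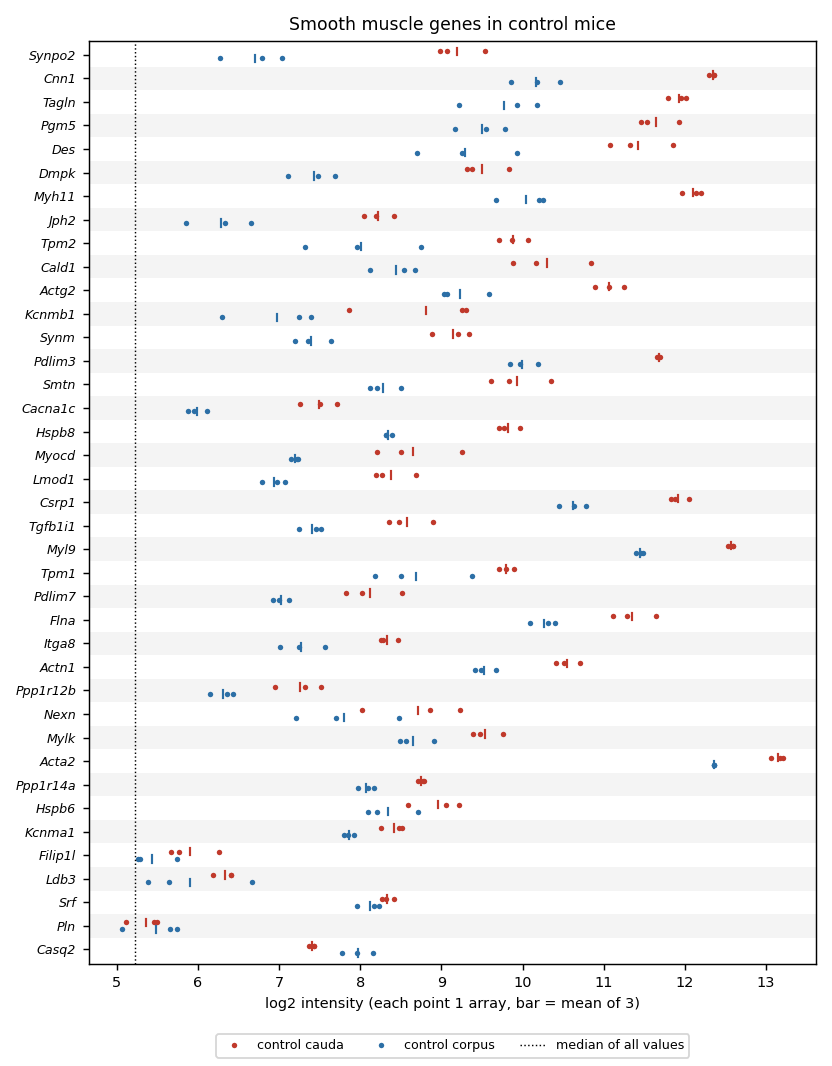
Log2 intensity of the 39 smooth muscle genes, ordered by difference; each point is 1 array, red for control cauda and blue for control corpus, bars are means of 3, and the dotted line is the median of all values (5.23). The cauda mean lies right of the corpus mean in 37 rows.

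Many genes of this program carry a CArG box, the site bound by serum response factor, in their promoters. Windows of 250 bases before to 50 after the start (RefSeq, GRCm38.p6) were searched for the CArG box on both strands. Of the 21 called members with a window, 1 had a match (4.76%), as did 4 of 33 measured members with a window (12.1%) and 283 of 16990 genes of the comparison (1.67%). The matches are shown because these genes are the members in which the box was found, with the box in capitals. Myl9, the regulatory light chain of smooth muscle myosin, was called (1.13 ± 0.14, adjusted p = 0.00141), and Filip1l, Ldb3 and Srf, the factor itself, were not (0.46, 0.44 and 0.21).
Myl9, chr2:156775293-156775322, plus strand: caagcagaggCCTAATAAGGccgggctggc
Filip1l, chr16:57549170-57549199, plus strand: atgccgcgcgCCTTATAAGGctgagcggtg
Ldb3, chr14:34588697-34588726, minus strand: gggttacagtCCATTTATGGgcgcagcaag
Srf, chr17:46556225-46556254, minus strand: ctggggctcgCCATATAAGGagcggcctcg
Srf, chr17:46556205-46556234, minus strand: agcggcctcgCCATAAAAGGaaacattgta
Each box shown begins with CC, ends with GG and holds only A or T between them. A match is a description of the letters only. No match says only that the letters searched for are not in this window, and a variant form of the box could be missed.

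Receptors that act on contraction were called in both directions, 4 higher and 3 lower of 50. P2rx1, the ATP-gated channel of smooth muscle, read 9.88, 9.82 and 9.83 on the cauda arrays, against 5.97, 7.09 and 5.79 on the corpus arrays (3.56 ± 0.29, adjusted p = 0.000145). Chrm2, the muscarinic M2 receptor, read 8.90, 8.65 and 8.84 on the cauda arrays, against 5.20, 5.87 and 4.92 on the corpus arrays (3.47 ± 0.23, adjusted p = 7.36e-05). Npy1r, a neuropeptide Y receptor, read 8.62, 8.41 and 8.16 on the cauda arrays, against 5.85, 5.81 and 6.02 on the corpus arrays (2.50 ± 0.27, adjusted p = 0.00058), and Tacr3, the neurokinin B receptor, differed by 1.48 ± 0.24. By contrast, P2rx2, another ATP-gated channel, read 7.45, 7.18 and 6.57 on the cauda arrays, against 10.26, 10.11 and 10.51 on the corpus arrays (-3.23 ± 0.35, adjusted p = 0.00052), and Npy6r, also of the neuropeptide Y receptor family, read 5.86, 4.31 and 3.53 on the cauda arrays, against 8.22, 8.28 and 8.29 on the corpus arrays (-3.70 ± 0.67, adjusted p = 0.0112). Within the ATP-gated and within the neuropeptide Y receptors, 1 member was thus higher and 1 lower in the cauda. Oxtr, the oxytocin receptor, was lower (-1.27 ± 0.23, adjusted p = 0.0107), a call lost without corpus control replicate 3 (adjusted p = 0.0524). The nerve and Schwann cell markers averaged 5.81, 5.73 and 5.73 on the cauda arrays, against 5.66, 5.73 and 5.69 on the corpus arrays.

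The few matrix genes called were higher in the cauda. Tnc (tenascin C) read 7.92, 8.07 and 8.39 on the cauda arrays, against 6.29, 5.59 and 5.46 on the corpus arrays (2.35 ± 0.23, adjusted p = 0.000329), and Lama4, a laminin chain of muscle and vessel basement membranes, differed by 1.14 ± 0.17. Col12a1 (1.37 ± 0.22, adjusted p = 0.00645) and Col14a1 (1.11 ± 0.18, adjusted p = 0.00693), collagens that associate with fibril surfaces, were higher. Of 44 collagens 4 were called (9.09%, beside 5.22% over all genes). Only Col12a1 and Col14a1 kept the call in all 6 control leave-one-out fits. The 31 elastic fibre and matrix genes had a median difference of 0.46 with 3 higher and none lower (9.68% called). Of these calls, 2 stood in all 6 control leave-one-out fits. The fibroblast markers averaged 9.89, 9.75 and 9.68 on the cauda arrays, against 9.31, 9.06 and 9.03 on the corpus arrays, and their part in these values was not tested.

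Homeobox and Id genes were among the transcription factors called. Of 36 Hox genes, which pattern the body axis and the reproductive duct, 5 were higher and 2 lower. Hoxd10 read 8.67, 8.53 and 8.49 on the cauda arrays, against 6.38, 6.37 and 5.66 on the corpus arrays (2.42 ± 0.18, adjusted p = 9.61e-05). Hoxa10 read 7.94, 8.12 and 7.52 on the cauda arrays, against 5.79, 5.82 and 5.39 on the corpus arrays (2.20 ± 0.19, adjusted p = 0.000177), and Hoxd11 read 7.04, 7.07 and 6.53 on the cauda arrays, against 4.47, 4.90 and 4.82 on the corpus arrays (2.15 ± 0.22, adjusted p = 0.000434). Those 3 lie toward the 5′ end of their clusters. Hoxc9 was lower, at 5.92, 5.94 and 5.87 in the cauda and 6.90, 6.91 and 7.02 in the corpus (-1.03 ± 0.13, adjusted p = 0.00157). Hoxb9, the gene of the same number in another cluster, was called higher, but not in all control leave-one-out fits. The list median was -0.03 and 29 of the 36 were not called, so no rule of position is read from these genes. Hoxd13, the terminal gene of its cluster, was higher (0.99 ± 0.18, adjusted p = 0.0117), a call lost without cauda control replicate 2 or corpus control replicate 1 (adjusted p = 0.0515 to 0.0526). Of 131 other homeobox genes, 4 were higher and 1 lower (3.82% called, below the 5.22% over all genes). Meis2, a cofactor of Hox proteins, was higher, at 9.21, 9.35 and 8.49 in the cauda and 7.58, 7.39 and 7.31 in the corpus (1.59 ± 0.21, adjusted p = 0.00166), as was Cux2 (0.64 ± 0.11, adjusted p = 0.00986), and Pax8 was lower (-1.26 ± 0.24, adjusted p = 0.0142), a call lost without cauda control replicate 3 or corpus control replicate 3 (adjusted p = 0.0583 to 0.0713).

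Id1, Id2, Id3 and Id4, which bind bHLH factors and keep them from DNA, were all higher. Id1 read 7.71, 8.14 and 7.95 on the cauda arrays, against 5.82, 5.92 and 5.65 on the corpus arrays (2.14 ± 0.19, adjusted p = 0.000177), and Id3 read 9.25, 9.25 and 9.40 on the cauda arrays, against 6.98, 7.42 and 6.85 on the corpus arrays (2.22 ± 0.22, adjusted p = 0.000374). Id2 differed by 1.70 ± 0.17 and Id4 by 1.25 ± 0.21. All 4 calls stood in every control leave-one-out fit, and over the whole bHLH list 5 of 51 were higher and 4 lower. Gata2, a zinc-finger factor, was higher, at 9.70, 9.57 and 9.37 in the cauda and 7.83, 8.03 and 8.11 in the corpus (1.56 ± 0.18, adjusted p = 0.000688). Of 45 nuclear receptors 5 were higher and none lower, and Rorb was the one whose call held in each control leave-one-out fit (1.19 ± 0.18, adjusted p = 0.00469). No forkhead (43), Sox (19) or Klf and Sp gene (25) was called.

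Secreted signals and their antagonists also differed. The Wnt pathway signals through secreted Wnt ligands and Frizzled receptors, with R-spondins as enhancers and Sfrp and Dkk proteins as inhibitors; 11 of 47 members were higher and 2 lower. Among ligands, Wnt7b read 8.05, 7.89 and 7.97 on the cauda arrays, against 6.26, 5.97 and 5.97 on the corpus arrays (1.90 ± 0.20, adjusted p = 0.000493), Wnt2 was higher (1.15 ± 0.17, adjusted p = 0.00434) and Wnt2b was lower (-1.41 ± 0.17, adjusted p = 0.00112). The R-spondin Rspo3 was higher (1.82 ± 0.25, adjusted p = 0.00268). The inhibitor Sfrp2 read 9.68, 9.69 and 9.55 on the cauda arrays, against 6.92, 7.23 and 6.32 on the corpus arrays (2.81 ± 0.33, adjusted p = 0.000915), whereas the inhibitor Dkk1 read 4.77, 5.02 and 5.07 on the cauda arrays, against 7.84, 7.03 and 6.64 on the corpus arrays (-2.21 ± 0.40, adjusted p = 0.0108). Wnt2b and Dkk1 were the only decreases called in the list, so that most called ligands and most called inhibitors were higher. Of the 11 increases, 6 kept the call in all 6 control leave-one-out fits, as did both decreases.

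In the TGF-beta family, 5 of 38 were higher and 3 lower. Gdf7, a BMP-type ligand, read 7.55, 7.81 and 7.96 on the cauda arrays, against 5.44, 6.28 and 4.63 on the corpus arrays (2.33 ± 0.37, adjusted p = 0.0059). Bmp2 (1.63 ± 0.18, adjusted p = 0.00054) and Bmp3 (1.32 ± 0.23, adjusted p = 0.00912) were higher, as was Fst (follistatin), an antagonist of activins (1.88 ± 0.22, adjusted p = 0.000996). Tgfb1 was lower, at 8.39, 8.02 and 7.97 in the cauda and 9.18, 9.21 and 9.86 in the corpus (-1.29 ± 0.19, adjusted p = 0.00355), and Gdf11 differed by -1.48 ± 0.23. Of 31 FGF ligands and receptors (9.68% called, beside 5.22% over all genes), the receptor Fgfr2 was higher (1.35 ± 0.16, adjusted p = 0.000985). The ligand Fgf7 was higher as well (0.97, adjusted p = 0.0217), a call lost without cauda control replicate 1 or 2 or corpus control replicate 3 (adjusted p = 0.0585 to 0.0991). In all 2 members of that list were higher and 1 was lower, Fgf12 (-1.21 ± 0.22, adjusted p = 0.0124), whose call was lost without cauda control replicate 3 or corpus control replicate 3 (adjusted p = 0.0548 to 0.0599).

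The Dicer1 cKO arrays, from other mice, gave the same contrast with no shared array. Of the 1157 genes called in control mice, 1126 (97.3%) had the same sign in cKO mice, beside 63.4% of all 22180 genes. In cKO mice 943 genes were called (4.25%), 588 of the 1157 were among them, and none was called in the opposite direction. The median absolute difference in control mice was 1.08 for the 1157 genes and 0.19 over all genes, so the 2 shares of equal sign are not like for like. The median ratio of the cKO to the control difference over the 1157 genes was 0.786. These genes were chosen for their difference in control mice, which can lower this ratio by itself. No weaker region difference in cKO mice is therefore read from it. The difference of Spink14 was 9.42 in cKO and 7.38 in control mice, and that of Pate9 was 8.12 in cKO and 5.61 in control mice. The corpus means of Spink14 (3.20 in cKO and 5.34 in control mice) and of Pate9 (2.74 in cKO and 4.26 in control mice) were near or below the median of all values (5.23), so the sizes of these differences were not compared between genotypes. The smooth muscle list had a median of 1.05 in cKO mice, where 25 members were higher and Casq2 was lower (-0.77, adjusted p = 0.0426), and of 1.29 in control mice.

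Several genes differed in their region contrast between genotypes by value, without passing the test. Clca3a2 and Gdf11 are shown as examples whose sign differed. Clca3a2 had a difference of -0.17 in cKO and 1.94 in control mice (adjusted p of the interaction = 0.58), and Gdf11 of 0.34 in cKO and -1.48 in control mice (adjusted p of the interaction = 0.373). The interaction was called for 0 genes with limma at an adjusted p under 0.05. At an unadjusted p under 0.05 there were 1428 of 22180 genes, a limit that a share of 0.05 would pass with no difference between genotypes. Leaving out corpus cKO replicate 3 gave 107 interaction calls, and leaving out any other single array gave 0.

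**Figure D5:**
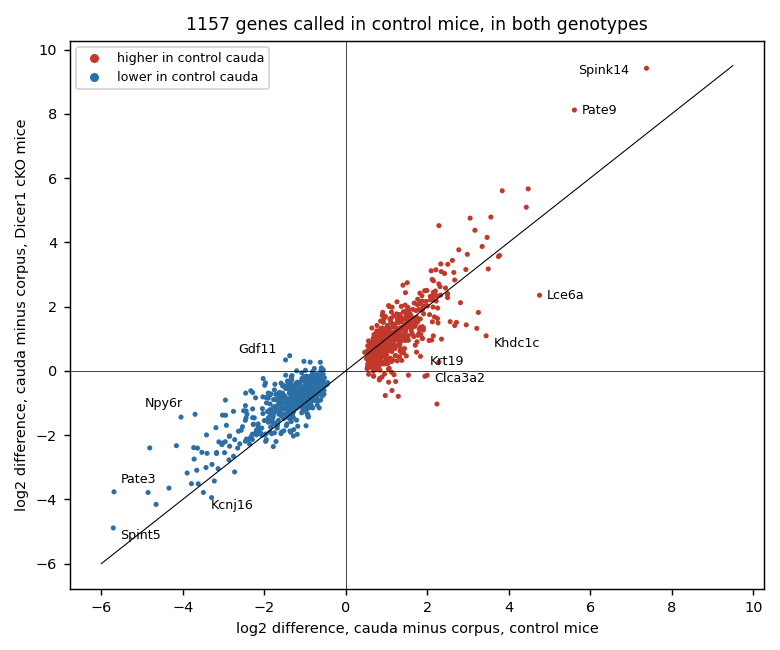
Log2 difference, cauda minus corpus, of the 1157 genes called in control mice, in control mice (horizontal) and in Dicer1 cKO mice (vertical), with the line of equal values; red genes were higher and blue genes lower in the control cauda. 1126 of the 1157 points lie in the quadrants of equal sign, and Clca3a2 and Gdf11 are among those that do not.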

How the data were processed

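Total RNA of the cauda and of the corpus, from 3 mice of each genotype, was hybridized to Affymetrix GeneChip Mouse Gene 2.0 ST arrays according to the study's methods; the labels describe a miRNA labelling protocol instead, while the deposited table holds gene probe-sets. The deposited log2 intensity values were made by the authors with RMA in Partek; they were used as deposited. Annotation of the platform gave 1 symbol to 23521 of 41345 probe-sets, several to 1820 and none to 16004. A gene was the probe-set of 1 symbol with the highest mean over 12 arrays (22180 genes). One linear model with a mean for each of the 4 groups was run with limma 3.58.1 (R 4.3.3) on all probe-sets, two-sided, with Benjamini-Hochberg adjustment over 41345 probe-sets; the fit was tested on simulated data. Errors are SE of the fit, n = 3 arrays a group, and arrays limit the precision by their number. Array medians were 5.19 to 5.31 over the 12 arrays. Among the control arrays, correlations were 0.971 to 0.982 within a region. Between cauda and corpus arrays they were 0.957 to 0.975, so these ranges overlapped. The methods name no block. Deviations of same-numbered arrays correlated at 0.10, 0.11 and 0.07 in cKO mice and at 0.05, 0.08 and -0.04 in control mice. Those of different-numbered arrays correlated at -0.12 to 0.02 in cKO mice, below every same-numbered value there. In control mice they correlated at -0.17 to 0.12, on both sides of the same-numbered values. Not all same-numbered values were over 0.1, the limit used, so the numbers were not taken as pairs. Whether the numbers mark mice was thus not settled, least of all in cKO mice. Named were the 15 largest changes each way among called genes, up to 4 members per list and direction by p, and Dicer1. Exceptions are stated. The genes and lists were chosen with earlier results of these data known. Alternatives in normalization, filter, test, arrays and gene summary were tried.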

Additional observations from a re-analysis of the deposited data

How the results depend on the processing

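The 1157 calls (550 higher, 607 lower) changed by over 1.5 times under several settings, and the cause was not tested. Testing only probe-sets with 1 symbol gave 1749 (828 higher, 921 lower), and taking the mean of a gene's probe-sets gave 1781 (839 and 942). Adding a 2-fold minimum gave 652 (299 and 353). Without the 4 arrays numbered 3 the count was 496 (245 and 251) and the interaction had 1 call. Without both corpus control replicate 1 and cauda control replicate 3, a setting chosen after seeing the data, it was 390 (246 and 144). Leaving out 1 array of the 12 gave 540 (without corpus control replicate 3) to 1617 (without corpus cKO replicate 3), with 300 to 716 higher and 240 to 901 lower, and 0 to 107 interaction calls. Centring each array on its median gave 466 higher and 637 lower. A fixed replicate block gave 733 calls (359 and 374), 678 of them shared with the main 1157; the block rests on numbers that were not shown to pair the samples.

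No named gene reversed its direction under any alternative run. The methods' pairwise contrasts, without moderated variances, gave 870 calls, 778 of them shared, and a fit of the 6 control arrays 919, of which 771 were shared. The median of the smooth muscle list stayed between 1.15 and 1.45 in all alternatives. Low intensity limits 168 called genes, whose lower group mean was under the median of all values.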

Other observations

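A few genes outside the lists above were chosen after their values were seen. Ptgs2, the inducible prostaglandin synthase, read 10.23, 10.0 and 10.09 on the cauda arrays, against 7.77, 7.71 and 6.82 on the corpus arrays (2.67 ± 0.31, adjusted p = 0.000888), and Slco2a1, a prostaglandin carrier, read 11.48, 11.21 and 11.06 on the cauda arrays, against 9.52, 9.24 and 9.79 on the corpus arrays (1.73 ± 0.25, adjusted p = 0.00329). Agt (angiotensinogen) read 6.48, 6.14 and 6.32 on the cauda arrays, against 8.83, 9.07 and 9.23 on the corpus arrays (-2.73 ± 0.33, adjusted p = 0.00104), and Ace, the angiotensin-converting enzyme, read 9.66, 9.31 and 8.96 on the cauda arrays, against 12.02, 11.34 and 11.52 on the corpus arrays (-2.32 ± 0.38, adjusted p = 0.00672). The other genes of these pathways were not counted. In cKO mice the differences were 1.41 for Ptgs2, 1.88 for Slco2a1, -3.15 for Agt and -2.04 for Ace.

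S100a14, a calcium-binding protein of epithelia, was higher, at 8.78, 8.21 and 9.15 in the cauda and 6.50, 6.71 and 6.26 in the corpus (2.23 ± 0.23, adjusted p = 0.000464), and Mmp2, a gelatinase, was higher, at 9.30, 8.98 and 9.27 in the cauda and 7.76, 6.99 and 7.17 in the corpus (1.88 ± 0.25, adjusted p = 0.00185). Myo7b, a myosin of brush-border microvilli, was lower, at 5.62, 5.27 and 5.08 in the cauda and 7.27, 6.98 and 7.85 in the corpus (-2.04 ± 0.33, adjusted p = 0.00575), and Cdh16, an epithelial cadherin, was lower, at 7.72, 7.26 and 7.34 in the cauda and 9.66, 8.79 and 9.77 in the corpus (-1.97 ± 0.28, adjusted p = 0.00287). These 8 genes kept their calls in all 6 control leave-one-out fits. No explanation was tested for any of them.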
